A study of Caenorhabditis elegans with 16 samples.

Results

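The snoRNA genes are the 345 genes that the count files place in class snoRNA, of 45510 genes counted. Each was read on its own strand (sense) and on the opposite strand (antisense) in 10 *C. elegans* small RNA libraries, which form 5 comparisons of *cde-1(tm936)* with a control. All animals were grown at 20 °C. Total small RNA came from young adults of N2 and of *cde-1(tm936)*. NRDE-3-bound small RNA came from embryos of *GFP::NRDE-3* and *cde-1(tm936);GFP::NRDE-3* animals, and from 2 strains that carry both *eri-1(mg366)* and *GFP::NRDE-3*, without and with *cde-1(tm936)* (the latter written *eri-1;cde-1* below). The labels place those at the L3 stage on HT115 bacteria, whereas the methods of the study describe IPs from embryos, and the labels were followed here. The other animals were fed OP50. HRDE-1-bound and WAGO-1-bound small RNA came from young adults of *GFP::HRDE-1* and *GFP::WAGO-1*, each with and without *cde-1(tm936)*. The Argonaute transgenes were driven by their own promoters and precipitated with an anti-FLAG antibody. CDE-1 is a polyuridylation polymerase, and the study was about small RNAs antisense to ribosomal RNA. The snoRNA genes were read from the same libraries. Each genotype had 1 library, so no difference between genotypes could be tested against replicates, and the intervals below are 95% intervals of counting error only.

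Small nucleolar RNAs (snoRNAs) are short stable RNAs of the nucleolus. Box C/D snoRNAs guide 2′-O-methylation and box H/ACA snoRNAs guide pseudouridylation, mostly of ribosomal RNA, and a few take part in the cutting of the rRNA precursor. Reads on the sense strand of a snoRNA gene can be pieces of the snoRNA itself or of another transcript that overlaps it on that strand. Antisense reads can be small interfering RNAs, which in *C. elegans* are made by RNA-dependent RNA polymerases on a target RNA and are loaded onto Argonaute proteins such as NRDE-3, HRDE-1 and WAGO-1.

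All 345 genes were found in the annotation, with a length between 54 and 344 nt (median 130). They lay on all chromosomes, with 74 on chromosome I, 71 on II, 53 on III, 59 on IV, 55 on V and 33 on X. For 120 genes the span was within an intron of a protein-coding gene on the same strand. Another 109 overlapped no exon of another gene and lay within no protein-coding gene, written below as no other gene. Introns of non-coding genes, and introns that hold a snoRNA gene only in part, were not counted. An exon of another gene overlapped 50 genes on the same strand, 39 on the opposite strand and 6 on both, and 21 lay in an intron of a gene on the opposite strand. The class was not purely snoRNA, since 2 members, C33A12.21 (*smy-2*) and D1086.14 (*smy-3*), carry the names of SmY RNAs, nematode RNAs of the trans-splicing machinery. No read fell on 8 genes in any library, and 30 had no antisense read.

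The libraries held between 5200610 and 9919222 counted reads. Class rRNA took between 10.3% and 66.2% of them, so all levels are reads per 1000000 counted reads outside class rRNA (RPM), of which there were between 3041177 and 6806774. A count of 0 allows up to 3 reads, which is between 0.441 and 0.986 RPM by library. As a check of strand, the opposite strand of miRNA genes took between 0.0503% and 1.75% of miRNA reads, while antisense reads were between 4.96% and 82.0% of snoRNA reads. Sense reads of *cde-1* itself, listed as *cid-1* in the annotation, were lower in the mutant library of every comparison, between 11.5 and 104 RPM in the controls and between 0.352 and 25.2 RPM in the mutants.

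Antisense reads over all snoRNA genes were higher in the *cde-1(tm936)* library of each comparison, and by far the most in the NRDE-3 IP of *eri-1(mg366)* animals. There they were 1215 RPM (1185 to 1246) in the control and 13111 RPM (13011 to 13212) in *eri-1;cde-1*, a ratio of 10.8 (10.5 to 11.1). In the total small RNA of young adults they were 1693 RPM (1661 to 1725) in N2 and 2773 RPM (2730 to 2817) in *cde-1(tm936)*, a ratio of 1.638 (1.599 to 1.679). In the NRDE-3 IP of embryos the levels were 1969 RPM (1920 to 2020) and 3517 RPM (3468 to 3566), a ratio of 1.79 (1.73 to 1.84). Class rRNA took 66.2% of the counted reads of that control and 26.9% of the mutant, and per all counted reads the ratio was 3.86. The 2 other Argonautes gave smaller ratios. The level went from 1527 RPM (1491 to 1565) to 2261 RPM (2225 to 2297) in the HRDE-1 IP, a ratio of 1.48 (1.44 to 1.52). In the WAGO-1 IP it went from 1375 RPM (1345 to 1406) to 1923 RPM (1890 to 1956), a ratio of 1.40 (1.36 to 1.44). These ratios include any shift of antisense reads shared by all genes. Genes of any class with at least 20 antisense reads in both libraries had median log2 ratios of 0.45 with *eri-1(mg366)* and 0.39 in total small RNA. In embryos, with HRDE-1 and with WAGO-1 these medians were -0.38, 0.11 and -0.02. In whole animals, fewer cells that hold an RNA and less of it per cell cannot be told apart.

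These sums were led by a few genes. The 3 genes with most antisense reads held 90.7% of the class in N2 and 67.2% in *cde-1(tm936)*. In embryos they held 89.5% and 69.7%, with HRDE-1 59.3% and 42.4%, and with WAGO-1 56.9% and 52.0%. The step was widest with *eri-1(mg366)*, where the share of the leading 3 was 79.1% in the control and 21.5% in *eri-1;cde-1*. The number of genes needed to hold at least 50% of the antisense reads was 1 in the control and 9 in the mutant of that comparison.

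**Figure D1:**
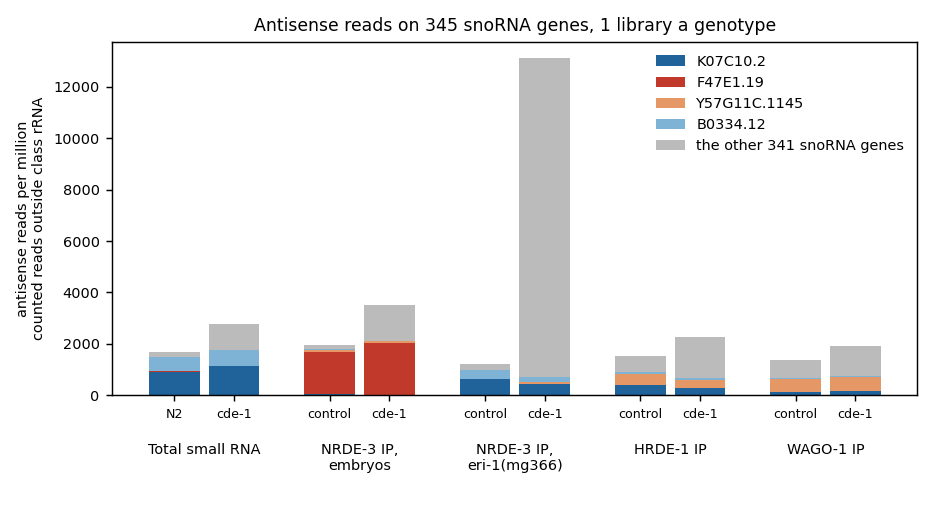
Antisense reads on the 345 snoRNA genes in each of the 10 libraries, in RPM, stacked by gene; each bar is 1 library and has no replicate error. K07C10.2 (dark blue) and B0334.12 (light blue) fill most of the bar in N2, F47E1.19 (red) fills most of both embryo bars, and the grey part, the other genes, is largest in *eri-1;cde-1*, whose total is 13111 RPM.

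K07C10.2, an 87-nt gene on the plus strand of chromosome II (WBcel235, chrII:11167217-11167303), held the most antisense reads over all libraries, 23273 against 70 sense reads. It lies opposite an exon of the non-coding RNA gene K07C10.6, and these antisense reads have the strand of that gene, so reads of the 2 genes cannot be told apart. It had 5856 antisense reads in N2 and 6272 in *cde-1(tm936)*, a ratio of 1.23 (1.19 to 1.28), or 0.30 on the log2 scale, which became -0.15 when libraries were scaled by the trimmed mean of M-values (TMM) or by the median of ratios. In the other pairs it had 194 and 131 reads in embryos, 3214 and 2119 with *eri-1(mg366)*, 1718 and 1981 with HRDE-1, and 677 and 1111 with WAGO-1. The ratios were 0.362 (0.288 to 0.454), 0.692 (0.655 to 0.731), 0.719 (0.674 to 0.768) and 1.38 (1.25 to 1.52). K07C10.2 thus went against the class in the 3 comparisons in which its ratio was below 1, and in total small RNA its direction turned with the scaling.

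B0334.12 (70 nt, chrII:11484683-11484752, plus strand) lies in an intron of *twk-5*, a potassium channel gene on the opposite strand. Its antisense reads had the same course as those of K07C10.2. There were 3532 and 3515 in total small RNA, 198 and 101 in embryos, 1644 and 898 with *eri-1(mg366)*, 398 and 583 with HRDE-1, and 196 and 333 with WAGO-1. The ratios were 1.14 (1.09 to 1.20), 0.273 (0.213 to 0.349), 0.573 (0.528 to 0.622), 0.914 (0.803 to 1.04) and 1.43 (1.19 to 1.71). In total small RNA its log2 ratio, 0.19, was -0.26 under TMM and under median-of-ratios scaling. Neither gene was 2-fold higher in any comparison. Another gene with many antisense reads in N2, C41C4.11 (chrII:8107196-8107270, minus strand), lies opposite an exon of the non-coding RNA gene C41C4.15. It had 436 and 595 antisense reads in total small RNA, 81 and 150 in embryos (log2 ratio -0.02, but 1.09 per all counted reads), and 97 and 328 with *eri-1(mg366)*, where the ratio was 3.55 (2.82 to 4.50).

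In embryos the leading gene was another one. F47E1.19 (157 nt, chrX:9071158-9071314, plus strand) had 4966 antisense reads in the control and 11442 in *cde-1(tm936)*, a ratio of 1.23 (1.19 to 1.28). In the other 8 libraries it had between 10 and 91 reads. The gene overlaps an exon of the long non-coding RNA gene *linc-22* on the same strand and the piRNA gene 21ur-15566 on the opposite strand, so its reads cannot be given to 1 of these genes. It was 2.53-fold lower in *cde-1(tm936)* total small RNA (61 and 21 reads) and 4.55-fold (2.81 to 7.70) higher in *eri-1;cde-1* (21 and 91 reads).

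In the IPs of the 2 germline Argonautes, HRDE-1 and WAGO-1, Y57G11C.1145 (95 nt, chrIV:14780839-14780933, plus strand, with no other gene) held the most antisense reads of all members over each pair of libraries. It had 1675 and 2080 reads with HRDE-1 and 2943 and 3722 with WAGO-1, with ratios of 0.775 (0.726 to 0.827) and 1.06 (1.01 to 1.11). Outside these IPs it had between 38 and 356 reads. With the leading gene of each pair left out (K07C10.2 in total small RNA and with *eri-1(mg366)*, F47E1.19 in embryos, Y57G11C.1145 in the HRDE-1 and WAGO-1 IPs), the class ratios were 2.12 (2.05 to 2.19), 21.4 (20.6 to 22.1), 4.46 (4.18 to 4.76), 1.73 (1.67 to 1.79) and 1.599 (1.545 to 1.655). Each was above the ratio of the whole class.

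Single genes were compared where either library had at least 20 antisense reads, and a gene was called higher or lower past 2-fold in RPM with 1 read added. In total small RNA 46 genes passed, of which 35 were higher and 1 was lower. Over all genes outside class rRNA the same rule called 20.3% higher and 6.37% lower. In embryos 35 passed, with 26 higher and 3 lower, beside 23.7% higher and 23.7% lower of all genes. With *eri-1(mg366)* 91 passed, with 87 higher and none lower, beside 43.5% and 13.1%. In the HRDE-1 IP 49 passed, with 25 higher and 1 lower (22.4% and 14.5% of all genes), and in the WAGO-1 IP 47 passed, with 20 higher and 2 lower (13.3% and 16.7%).

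The filter shaped these counts. Of the genes that passed, 29 in total small RNA, 26 in embryos, 68 with *eri-1(mg366)*, 24 with HRDE-1 and 19 with WAGO-1 had at least 20 reads in the mutant library only, so they entered through the library where they were high. Among the genes with at least 20 reads in both libraries, 8 of 17 were higher in total small RNA, 1 of 8 in embryos, 20 of 23 with *eri-1(mg366)*, 5 of 25 with HRDE-1 and 4 of 28 with WAGO-1. The same rule called 14.0%, 10.0%, 31.5%, 21.6% and 10.6% of all genes, so the members stood above all genes in total small RNA and with *eri-1(mg366)* and near them in the other 3 comparisons. The counts therefore describe the genes that gained reads and are no measure of all 345 members. The other 238 members had under 20 antisense reads in every library, and 23 passed in all 5 comparisons.

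The median log2 ratio over the genes that passed was 2.95 in total small RNA, 3.41 in embryos, 4.53 with *eri-1(mg366)*, 1.06 with HRDE-1 and 0.70 with WAGO-1. The medians over all genes were 0.45, 0.16, 0.77, 0.16 and -0.01, but members entered through the mutant library alone more often than all genes did (1443 of 8672, 1893 of 4213, 2381 of 7437, 1370 of 10113 and 977 of 8684), so these medians are not set against each other. Over genes with at least 20 reads in both libraries the snoRNA medians were 0.94, 0.14, 4.63, 0.54 and 0.23, and those of all genes 0.39, -0.38, 0.45, 0.11 and -0.02. With genes that had no read in 1 library set to their bound, the snoRNA median was 2.47 in embryos and 4.46 with *eri-1(mg366)*, and the other medians did not move.

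**Figure D2:**
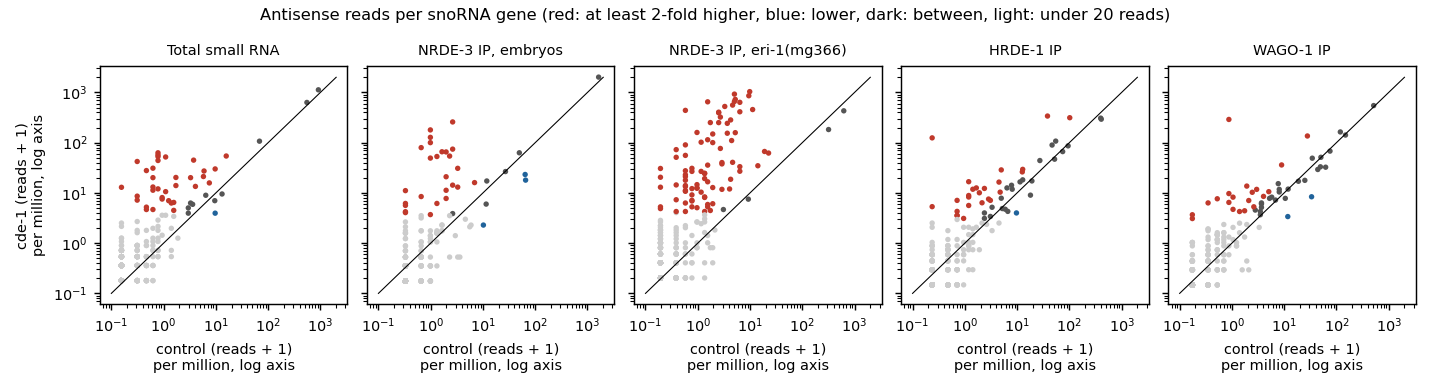
Antisense reads of each of the 345 snoRNA genes in the control (horizontal) and *cde-1(tm936)* library (vertical), as RPM with 1 read added, on log axes, with the line of equality. Red points are at least 2-fold higher (35, 26, 87, 25 and 20 genes from left to right), blue points at least 2-fold lower (1, 3, 0, 1 and 2), and light points have under 20 reads in both libraries.

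In total small RNA and both NRDE-3 IPs, the ratio of summed antisense reads was higher on genes whose own reads were sense. Members were divided by the strand that held more RPM over the 5 control libraries, which gave 241 sense genes (ties included), 81 antisense genes and 23 with no control read. The division used the control values, so a gene low by chance in a control tends towards the first group. Control antisense reads are also the base of the ratios, so part of the contrast is built into the division. Antisense reads on the sense genes were 55.8 RPM in N2 and 620 RPM in *cde-1(tm936)*, a ratio of 11.1 (9.97 to 12.4). In embryos they were 78.6 and 1018 RPM (ratio 13.0, 11.4 to 14.7), and with *eri-1(mg366)* 157 and 9144 RPM (ratio 58.1, 54.2 to 62.3). On the antisense genes the ratios in these comparisons were 1.31 (1.28 to 1.35), 1.32 (1.28 to 1.36) and 3.75 (3.64 to 3.86). K07C10.2 and B0334.12, both antisense genes, held 51.1% and 26.2% of the class in the *eri-1(mg366)* control, where all antisense genes held 87.0%. In N2 these shares were 54.0%, 32.6% and 96.7%. In the embryo control F47E1.19, also an antisense gene, held 82.9% of the class, where all antisense genes held 96.0%. Over single genes past the filter, the median log2 ratios of sense and antisense genes were 3.76 and 1.63 in total small RNA. In embryos they were 4.10 and 1.27. With *eri-1(mg366)* the order turned, at 4.53 and 4.80. The share of the antisense reads that fell on the sense genes went from 3.29% to 22.4% in total small RNA, from 3.99% to 29.0% in embryos and from 13.0% to 69.7% with *eri-1(mg366)*. In the HRDE-1 and WAGO-1 IPs the contrast was smaller. There the sense genes had ratios of 1.80 (1.65 to 1.97) and 1.55 (1.43 to 1.68), and the antisense genes 1.44 (1.40 to 1.49) and 1.38 (1.34 to 1.42), and the share on the sense genes went from 9.99% to 12.2% and from 11.28% to 12.53%. By the RPM gained, the sense genes held 52.2%, 60.7%, 75.5%, 16.7% and 15.7% of the gain in the 5 comparisons, so with HRDE-1 and WAGO-1 most of it lay on the antisense genes. By genes past the filter, 9 of 24 antisense genes and 16 of 25 sense genes were higher with HRDE-1. With WAGO-1 these were 8 of 23 and 12 of 24.

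The ratios of summed reads also differed with position. On the 109 genes written as no other gene, no exon of another annotated gene could lend reads. There the ratios were 7.94 (7.17 to 8.78) in total small RNA, 10.113 (9.055 to 11.296) in embryos, 63.8 (58.9 to 69.1) with *eri-1(mg366)*, 1.78 (1.70 to 1.85) with HRDE-1 and 1.52 (1.47 to 1.58) with WAGO-1. On the 120 genes within an intron of a gene on the same strand they were 5.12 (4.29 to 6.12), 3.91 (3.07 to 4.98), 54.6 (47.6 to 62.5), 1.76 (1.51 to 2.04) and 1.62 (1.40 to 1.88). The 39 genes opposite an exon had a ratio of 1.87 (1.79 to 1.94) with *eri-1(mg366)* and a ratio below 1 in the HRDE-1 IP, 0.753 (0.707 to 0.802). In the other comparisons they had ratios of 1.34 (1.30 to 1.38) in total small RNA, 1.57 (1.39 to 1.77) in embryos and 1.45 (1.33 to 1.58) with WAGO-1. K07C10.2 is 1 of those 39 and held 5856 of their 6434 antisense reads in N2. It held 51.1% of the antisense reads of the class in the *eri-1(mg366)* control, where all 39 held 56.4%. Its log2 ratio in that comparison was -0.53. In the HRDE-1 control these shares were 26.7% and 27.6%. Of the 23 genes of this group past the filter with *eri-1(mg366)*, 21 were higher and none was lower (median log2 ratio 3.44). The filter also admits genes through the mutant library alone. The 50 genes overlapping an exon on the same strand had the highest ratio of these groups in the HRDE-1 IP, 2.77 (2.53 to 3.03), where Y73F8A.1175 held 428 of their 594 antisense reads in the control and 2120 of 2636 in the mutant. They had ratios of 2.92 (2.41 to 3.54), 2.84 (1.87 to 4.32), 25.7 (20.6 to 32.0) and 1.01 (0.929 to 1.10) in total small RNA, embryos, with *eri-1(mg366)* and with WAGO-1. The 21 genes in an intron on the opposite strand had 1.25 (1.19 to 1.31), 1.27 (1.09 to 1.48), 4.34 (4.12 to 4.57), 0.938 (0.857 to 1.03) and 1.01 (0.921 to 1.11) in the usual order. B0334.12 is 1 of those 21 and led their sums. It held 3532 of their 3612 antisense reads in N2, 198 of 234 in the embryo control and 1644 of 1788 in the *eri-1(mg366)* control. Over their single genes past the filter (5, 4, 9, 6 and 7), the median log2 ratios were 2.20, 1.56, 4.18, 0.26 and 0.70.

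**Figure D3:**
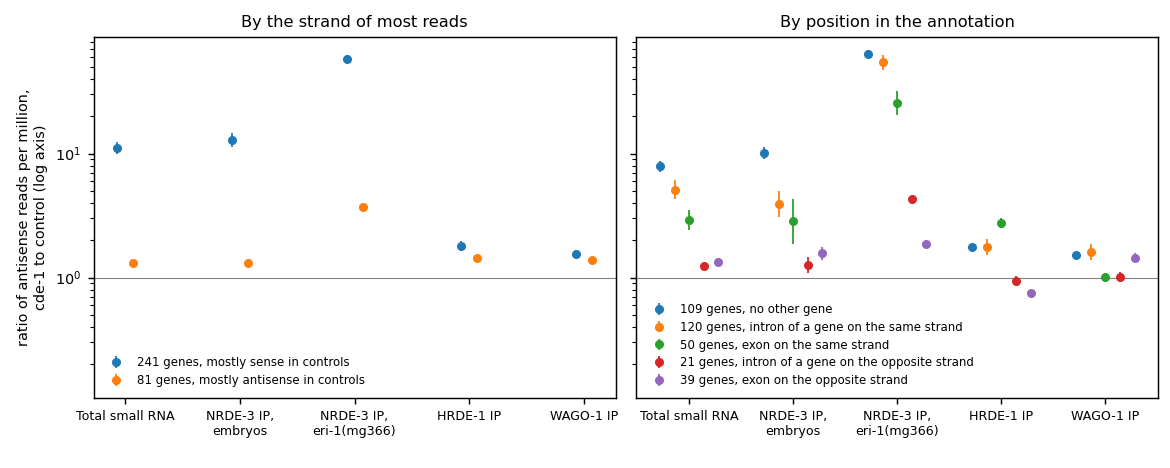
Ratio of summed antisense RPM in *cde-1(tm936)* to the control (log axis) for snoRNA genes grouped by the strand of most reads in the control libraries (left) and by position in the annotation (right; the 6 genes overlapping exons on both strands are not drawn). Points are 1 pair of libraries and bars are 95% intervals of counting error. The 241 sense genes stand at 11.1, 13.0 and 58.1 in the first 3 comparisons against 1.31, 1.32 and 3.75 for the 81 antisense genes. The division on the left used the control values, and K07C10.2, B0334.12 and F47E1.19 led the antisense sums. Over single genes past the filter, the median log2 ratios were 3.76, 4.10 and 4.53 for sense genes and 1.63, 1.27 and 4.80 for antisense genes.

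Of the 107 snoRNA genes past the filter in at least 1 comparison, 4 were at least 2-fold higher in all 5 comparisons and 9 more in 4 of them. Of the 13276 genes of any class past the filter in at least 1 comparison, 0.663% were higher in all 5 and 2.55% in 4 or more. Those snoRNA genes in all 5 were F25H2.15, Y67A10A.14, Y37E3.20 and M03D4.78. F25H2.15 (178 nt, chrI:10565266-10565443, plus strand, with no other gene) had 4 antisense reads in N2 and 349 in *cde-1(tm936)*, 2 and 1017 in embryos, 25 and 4556 with *eri-1(mg366)*, 18 and 110 with HRDE-1, and 22 and 57 with WAGO-1. Every mutant library was above its control. The ratios were 100 (38.8 to 370) in total small RNA, 272 (75.2 to 2252) in embryos, 191 (129 to 296) with *eri-1(mg366)*, 3.81 (2.30 to 6.67) with HRDE-1 and 2.18 (1.31 to 3.74) with WAGO-1. Its sense reads did not follow, with 904 and 957 reads in total small RNA and 1093 and 1050 with *eri-1(mg366)*, ratios of 1.22 (1.11 to 1.33) and 1.01 (0.925 to 1.10).

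F59C6.15 and Y67A10A.14 are of about the same length as F25H2.15 (173 and 174 nt) and had a like course. Y67A10A.14 (chrIV:14326948-14327121, minus strand) had 4 and 293 antisense reads in total small RNA, 2 and 723 in embryos, 16 and 2587 with *eri-1(mg366)*, 7 and 67 with HRDE-1, and 14 and 35 with WAGO-1, where its log2 ratio of 1.01 was at the 2-fold limit. F59C6.15 (chrI:10516978-10517150, minus strand) had 4 and 316, 7 and 1466, 26 and 3577, 9 and 82, and 20 and 34 reads. Its ratio in the WAGO-1 IP, 1.43 (0.799 to 2.62), was within counting error of 1. The aligner gives a read that fits several places equally to one of them, so near-identical genes share their reads, and whether these genes are near-identical was not examined here.

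Y37E3.20 (119 nt, chrI:2085037-2085155, plus strand) lies in an intron of *pcyt-2.1* on the same strand. It had 3 and 111 antisense reads in total small RNA, 4 and 373 in embryos, 23 and 2755 with *eri-1(mg366)*, 0 and 35 with HRDE-1, and 11 and 47 with WAGO-1. The increase was 126-fold (83.6 to 199) with *eri-1(mg366)* and at least 7.28-fold in the HRDE-1 IP, set against the floor of 3 reads. M03D4.78 (126 nt, chrIV:6117751-6117876, minus strand, with no other gene) differed from these in being read almost only on the antisense strand, with 4552 antisense and 21 sense reads over all libraries. It had 20 and 111 antisense reads in total small RNA, 7 and 80 in embryos, 26 and 778 with *eri-1(mg366)*, 160 and 2289 with HRDE-1, and 158 and 923 with WAGO-1. The ratio of 8.93 (7.60 to 10.5) in the HRDE-1 IP was above that in total small RNA, 6.38 (3.94 to 10.8), with overlapping intervals.

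Some genes had most of their antisense reads in 1 kind of library. T07D4.7 (118 nt, chrII:8877143-8877260, minus strand, with no other gene) had 0 antisense reads in the HRDE-1 control and 841 in the mutant, at least 175-fold more, and 4 and 1970 in the WAGO-1 IP, a ratio of 414 (161 to 1519). It had 3 and 72 reads in total small RNA, 0 and 8 in embryos and 0 and 25 with *eri-1(mg366)*, and 10 sense reads in all, so it was also past 2-fold higher in total small RNA and with *eri-1(mg366)*. F19G12.14 (325 nt, chrX:1422020-1422344, minus strand) had 2 antisense reads in the *eri-1(mg366)* control and 2163 in *eri-1;cde-1*, a ratio of 1135 (314 to 9377), and 1 and 234 in total small RNA. In embryos it had 35 and 97 reads, a ratio of 1.48 (0.999 to 2.25), and it had 1 and 5 in the HRDE-1 IP and 0 and 20 in the WAGO-1 IP, at least 5.60-fold more. T21B4.20 had 0 and 71 reads in total small RNA, 1 and 357 with *eri-1(mg366)*, 1 and 1 in embryos, and at most 5 reads in any HRDE-1 or WAGO-1 library.

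T09B9.10 (142 nt, chrX:9754602-9754743, minus strand) and W07G1.23 (134 nt, chrII:13946946-13947079, plus strand) were higher in embryos and in other comparisons. T09B9.10 had 7 and 421 antisense reads in embryos, a ratio of 32.2 (15.5 to 80.6), 0 and 63 with *eri-1(mg366)* (at least 22.0-fold more), 2 and 47 with HRDE-1, and 10 and 92 with WAGO-1. W07G1.23 had 1 and 451 in embryos, a ratio of 242 (43.1 to 9562), and 4 and 785 with *eri-1(mg366)*, a ratio of 206 (80.1 to 758). It was not higher in the WAGO-1 IP, with 59 and 52 reads. T08B6.64 (113 nt, chrIV:4880738-4880850, minus strand) had 10 and 112 reads in total small RNA, 5 and 118 in embryos, 32 and 3126 with *eri-1(mg366)*, 53 and 198 with HRDE-1, and 38 and 48 with WAGO-1. W03B1.17 (200 nt, chrIV:4347632-4347831, plus strand) had ratios of 9.58 (2.92 to 49.5) in total small RNA, 9.20 (3.41 to 34.9) with HRDE-1 and 9.24 (3.73 to 29.6) with WAGO-1, and 233 (64.1 to 1930) with *eri-1(mg366)*. Its control libraries had between 1 and 5 reads each. Y48A6C.10, in an intron of *sup-35* on the opposite strand (chrIII:11118361-11118484), had 48 and 4228 reads with *eri-1(mg366)*, a ratio of 92.4 (69.6 to 126), but 313 and 448 with HRDE-1 and 354 and 220 with WAGO-1, ratios of 0.893 (0.771 to 1.04) and 0.522 (0.439 to 0.619).

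The 2 SmY genes were among the members with the highest antisense level in *eri-1;cde-1*. *smy-2* (72 nt, chrIV:9511395-9511466, minus strand) had 50 antisense reads in the *eri-1(mg366)* control and 5106 in the mutant, a ratio of 107 (81.2 to 145), with 35 and 83 sense reads. *smy-3* (80 nt, chrV:14092572-14092651, plus strand) had 7 and 3202, a ratio of 480 (233 to 1195), with 123 and 76 sense reads. Without these 2 genes the class ratio in that comparison was 9.49.

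**Figure D4:**
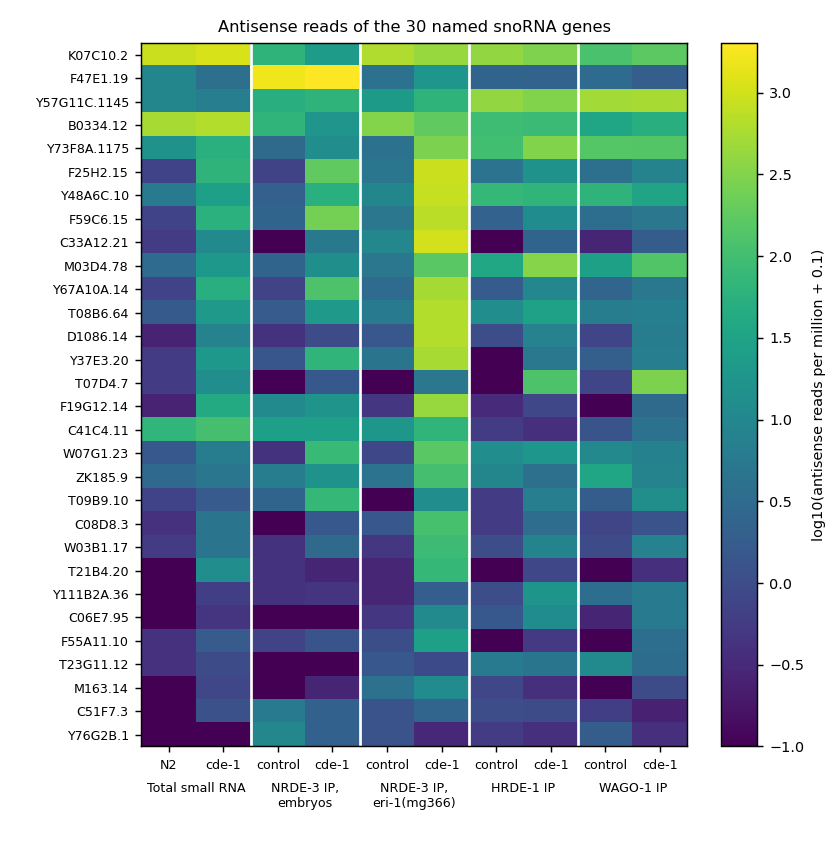
Antisense level of the 30 named snoRNA genes (rows, ordered by their antisense reads over all libraries) in the 10 libraries (columns, pairs of control and *cde-1(tm936)*), as log10(RPM + 0.1). K07C10.2 and B0334.12 are bright in total small RNA of both genotypes, F47E1.19 is bright only in the 2 embryo libraries, and T07D4.7 is bright only in the mutant HRDE-1 (841 reads) and WAGO-1 (1970 reads) libraries.

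Besides K07C10.2, B0334.12 and F47E1.19, 3 genes were lower in at least 1 comparison. ZK185.9 (215 nt, chrIV:4538702-4538916, minus strand) lies in an intron of ZK185.2 on the opposite strand. It had 40 and 26 antisense reads with HRDE-1 and 190 and 56 with WAGO-1, where it was 2.47-fold and 4.04-fold lower in *cde-1(tm936)*. In embryos it had 20 and 90 reads and with *eri-1(mg366)* 22 and 542, ratios of 2.41 (1.47 to 4.13) and 25.9 (16.9 to 41.6). T23G11.12 (137 nt, chrI:7701177-7701313, plus strand), which overlaps an exon of the protein-coding gene T23G11.11 on the same strand, had 66 and 22 antisense reads with WAGO-1 (3.57-fold lower) and 24 and 31 with HRDE-1. Its sense reads in the WAGO-1 IP went the same way, with 120 and 24. Y76G2B.1 had 30 and 12 antisense reads in embryos, where it was 4.67-fold lower, and at most 10 in any other library.

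Sense reads gave another picture. Over all 345 genes they were 16127 RPM in N2 and 16173 RPM in *cde-1(tm936)*, a ratio of 1.00 (0.994 to 1.01). They were 23278 and 21415 RPM with *eri-1(mg366)*, a ratio of 0.920 (0.913 to 0.928), and 6105 and 5747 RPM in the HRDE-1 IP, a ratio of 0.941 (0.927 to 0.956). In embryos the level was lower in the mutant, 3988 RPM in the control and 769 RPM in *cde-1(tm936)*, a ratio of 0.193 (0.186 to 0.200). In the WAGO-1 IP it was higher, 1975 and 3568 RPM, a ratio of 1.81 (1.77 to 1.85).

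The embryo difference was spread over the snoRNA genes and was also present over all genes. Of 103 genes with at least 20 sense reads in either embryo library, 99 were lower and 2 were higher (M163.14 and Y73F8A.1175), while 85.3% of all genes were lower and 2.07% higher. The median log2 ratio of sense reads was -2.37 over the snoRNA genes and -1.79 over all genes. Under TMM and median-of-ratios scaling the snoRNA median was -0.57 and -0.56, within 2-fold. Y24D9A.9, in an intron of the ribosomal protein gene *rpl-7A*, had 873 and 152 sense reads. The sense share of reads on protein-coding genes was 12.6% in the control embryos and 5.93% in *cde-1(tm936)*, where class rRNA took 66.2% and 26.9% of counted reads in the same order. Their part in the embryo difference was not tested.

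In the other comparisons most members stayed within 2-fold on the sense strand. In total small RNA 10 of 133 were higher and 4 lower, beside 5.66% and 1.67% of all genes. With *eri-1(mg366)* 7 of 127 were higher and 16 lower, beside 4.17% and 9.02%. In the HRDE-1 IP 4 of 86 were higher and 5 lower, beside 4.37% and 6.44%, and with WAGO-1 the counts were 16 and 4 of 79, beside 6.48% and 13.7%. With WAGO-1, 18 of the 79 had at least 20 sense reads in the mutant only. Among members with 20 in both WAGO-1 libraries, 5 of 60 were higher and 3 lower, beside 206 of 6613 genes of any class higher. Over the members that passed in either library, the median log2 ratios were 0.12, -0.29, -0.12 and 0.36, and over all genes 0.08, -0.29, -0.14 and -0.32.

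**Figure D5:**
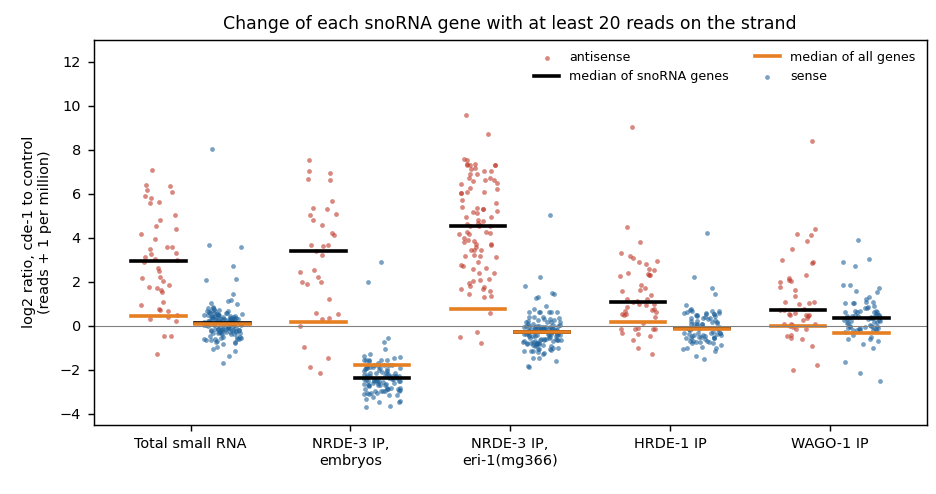
Log2 ratio of *cde-1(tm936)* to control for each snoRNA gene with at least 20 reads on the antisense (red) or sense (blue) strand, with the median of those genes (black) and of all genes past the same filter (orange). The antisense medians are 2.95, 3.41, 4.53, 1.06 and 0.70, over members of which many (29 of 46, 26 of 35, 68 of 91, 24 of 49 and 19 of 47) had 20 reads in the mutant only. Sense medians lie near those of all genes except in embryos (-2.37 against -1.79) and in the WAGO-1 IP (0.36 against -0.32).

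The WAGO-1 sense ratio depended on 1 gene. Y73F8A.1175 (175 nt, chrIV:15234446-15234620, plus strand) had 488 sense reads in the WAGO-1 control and 8701 in the mutant, a ratio of 15.0 (13.7 to 16.4), and without it the class ratio was 1.21 (1.18 to 1.24). Its sense reads were higher in all 5 mutant libraries, with 32 and 337 in total small RNA, 6 and 96 in embryos, 20 and 92 with *eri-1(mg366)*, and 72 and 2168 in the HRDE-1 IP. The gene overlaps the piRNA gene 21ur-1009 on the same strand, so these reads cannot be given to 1 of the 2. Its antisense reads were 428 and 2120 with HRDE-1, a ratio of 3.09 (2.78 to 3.44), but 850 and 963 with WAGO-1, a ratio of 0.951 (0.867 to 1.04). The strands thus differed in the WAGO-1 IP, where the sense strand alone was higher.

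The members with most sense reads, M163.14, C08D8.3 and C51F7.3, were short (64, 80 and 76 nt). M163.14 (chrX:14478464-14478527, plus strand) had 23815 and 34742 sense reads in the *eri-1(mg366)* IPs, a ratio of 1.53 (1.51 to 1.56), and between 2 and 101 in the other 8 libraries. By their labels those 2 libraries differ from the rest in genotype, stage and food, which cannot be told apart. Without M163.14 the sense ratio of the class there was 0.769 (0.762 to 0.777). C08D8.3, in an intron of C08D8.1, had 12104 and 7471 sense reads in the same pair and 8396 and 9906 in the HRDE-1 IP, with 7 and 562 antisense reads with *eri-1(mg366)*. C51F7.3, in an intron of *frm-7*, had 6004 and 4582 sense reads in total small RNA, yet at most 17 antisense reads in any library. Many sense reads were therefore not always accompanied by antisense reads. Across the genes that passed the antisense filter, Spearman's rho between the control sense level and the antisense log2 ratio was 0.40 in total small RNA (46 genes), 0.48 in embryos (35), -0.02 with *eri-1(mg366)* (91), -0.07 with HRDE-1 (49) and -0.20 with WAGO-1 (47). The genes of 1 comparison share their libraries and may share reads, so these values are descriptions.

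The Argonaute IPs and the total small RNA of young adults were set side by side, though the IP strains carry a transgene that N2 does not. Sense snoRNA reads were lower in the IPs, at 0.379 (0.373 to 0.384) of the N2 level for HRDE-1 and 0.122 (0.120 to 0.125) for WAGO-1. Summed antisense reads were at 0.902 (0.875 to 0.931) and 0.813 (0.789 to 0.836). Gene by gene most were higher in the control IPs, 23 of the 31 that passed the read filter for HRDE-1 (median log2 ratio 2.74) and 26 of 34 for WAGO-1 (2.78), while K07C10.2 and B0334.12 held 54.0% and 32.6% of the N2 antisense reads. In *cde-1(tm936)*, 29 of 63 were higher and 24 lower for HRDE-1 (0.71), and 24 of 61 higher and 27 lower for WAGO-1 (-0.15). The share over all genes was not computed, so these counts describe the members only. The summed antisense values in *cde-1(tm936)* were 0.815 (0.797 to 0.834) and 0.693 (0.677 to 0.710), and the sense values 0.355 (0.351 to 0.360) and 0.221 (0.218 to 0.224).

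Genes were ordered alike in some comparisons, none of which share a library. Spearman's rho between antisense log2 ratios was 0.78 for total small RNA against the NRDE-3 IP of *eri-1(mg366)* animals (44 genes), 0.76 for both NRDE-3 IPs (34 genes) and 0.71 for HRDE-1 against WAGO-1 (39 genes). It was 0.00 for the NRDE-3 IP of embryos against the WAGO-1 IP (27 genes) and -0.05 for the NRDE-3 IP of *eri-1(mg366)* animals against the WAGO-1 IP (38 genes). The remaining pairs of comparisons lay between 0.24 (NRDE-3 IP of *eri-1(mg366)* animals against HRDE-1) and 0.67 (total small RNA against the NRDE-3 IP of embryos). The genes were those with at least 20 antisense reads in either library of both comparisons. Many had 20 reads in the mutant library only, so many of these ratios rest on few control reads.

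The genes for the proteins that bind snoRNAs were listed for comparison, with roles known from yeast and human homologs. They were *fib-1*, *nol-56*, *nol-58* and *snu-13*, of the box C/D particle (*fib-1* encodes the methyltransferase fibrillarin), and *dkc-1*, *nola-3*, *garr-1* and Y48A6B.3, of the H/ACA particle (*dkc-1* encodes the pseudouridine synthase). Antisense reads passed the filter for 7 of these 8 genes in total small RNA (2 higher), 6 in embryos (1 higher), 7 with *eri-1(mg366)* (4 higher), 7 with HRDE-1 (5 higher) and 7 with WAGO-1 (0 higher), and none was lower. Over all genes 20.3%, 23.7%, 43.5%, 22.4% and 13.3% were higher. *fib-1* had 107 and 91 antisense reads in total small RNA, 23 and 85 with *eri-1(mg366)*, and 207 and 870 in the HRDE-1 IP, log2 ratios of -0.03, 1.91 and 1.39. *dkc-1* had 76 and 85, 48 and 96, and 148 and 609 reads, log2 ratios of 0.36, 1.05 and 1.35. The highest log2 ratio with *eri-1(mg366)* was that of *nol-56*, 2.56, and *nola-3* did not pass the filter there.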

How the data were processed

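Small RNA libraries were made by a method independent of the 5′ phosphate. Before deposit, the authors discarded adaptors, contaminants and tags of low quality. They aligned the remaining reads (18 to 30 nt) with Bowtie2, default settings, to transcripts of WS243 and counted them with Perl scripts of their own. The deposited values are raw read counts per transcript on the sense and antisense strands. Between 1 and 3 transcripts a library had no class and were dropped, which removed at most 0.00152% of the reads. One title prints another *cde-1* allele, and the genotype label was followed. The labels do not say whether libraries came from separate cultures. Names and positions came from Ensembl release 115 (WBcel235), another release than the one mapped to. A table of 26S rRNA tails from 6 other samples, with 6 value columns that matched no label, was not used.

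Levels (RPM) are reads per 1000000 counted reads outside class rRNA (both strands). Levels have 95% Wilson intervals, class ratios 95% log-normal intervals, and ratios of single genes exact (Clopper-Pearson) conditional intervals. Reads were amplified by PCR with no molecular identifiers, so intervals cover counting error only. A call was a 2-fold change of RPM with 1 read added, where 1 library or both had 20 reads or more, and ratios against 0 used a floor of 3 reads per library. Named genes were the 3 with most antisense reads in each library, the 3 largest rises and up to 3 falls in each comparison, up to 10 genes higher in 4 or more comparisons, by the lowest of their ratios, and the 3 with most sense reads. Other genes named were chosen after their values were seen. The members and lists were chosen with earlier results of these data known. Alternatives were other denominators, other read minimums, TMM (edgeR 4.0.16, R 4.3.3) and median-of-ratios scaling, and leaving genes out. The code was tested on simulated counts. The scripts ran under Python 3.11.15 with scipy 1.17.1, numpy 2.4.6, matplotlib 3.10.9 and pandas 2.3.3. Box C/D and H/ACA motifs were not searched, and no sequences are shown.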

Additional observations from a re-analysis of the deposited data

Results flagged for a closer look

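The sense snoRNA reads differed in direction between comparisons, at 0.193 of the control level in the NRDE-3 IP of embryos and 1.81 times the control level in the WAGO-1 IP. With 1 library a genotype, the difference was not tested. For antisense reads, F47E1.19 had a log2 ratio of 2.13 in the NRDE-3 IP of *eri-1(mg366)* animals and -1.29 in total small RNA. ZK185.9 had 4.63 in the NRDE-3 IP of *eri-1(mg366)* animals and -2.00 in the WAGO-1 IP. These differences between comparisons were not tested either.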

How the results depend on the processing

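With 1 library a genotype no difference has a replicate check, and depth limits genes under 20 reads. The direction of the class antisense ratio held under all 7 alternatives in the 5 comparisons. The alternative of genes with more sense reads in the controls picks genes with few control antisense reads. Its ratio is thus favoured to lie above 1, and its direction is no check. TMM and median-of-ratios scaling were not applied to the class ratio. In the order total small RNA, NRDE-3 in embryos, NRDE-3 with *eri-1(mg366)*, HRDE-1 and WAGO-1, it moved past its interval as follows. It was 1.48, 3.86 and 8.78 (first 3 comparisons) per all counted reads, 2.07 and 9.72 (the NRDE-3 IPs) per counted reads less the sense rRNA column, and 1.56, 2.19, 8.63, 1.54 and 1.20 per miRNA read. It was 2.12, 4.46, 21.4, 1.73 and 1.599 without the leading gene and 2.07, 6.15, 22.5, 1.61 and 1.46 without genes overlapping an exon. For alternatives chosen after seeing the data it was 11.1, 13.0, 58.1, 1.80 and 1.55 over the genes with more sense reads in the controls, and 9.49 with *eri-1(mg366)* without the SmY genes.

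The sense ratio was 0.987, 0.224 and 0.829 (first 3) less the sense rRNA column, 0.905, 0.417 and 0.749 per all counted reads, 0.956, 0.237, 0.736, 0.980 and 1.55 per miRNA read, and 1.04, 0.201, 0.769, 1.04 and 1.21 without the leading gene. The last reversed the HRDE-1 IP, where C08D8.3 was left out.

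The count of higher genes was 144, 43, 172, 44 and 63 without a filter, 16 and 11 (HRDE-1 and WAGO-1 IPs) at 50 reads, and, chosen later, 8, 1, 20, 5 and 4 at 20 reads in the control. With no filter the count of lower genes was 10, 31, 11, 42 and 35. At 50 reads it was 0 in the HRDE-1 IP. Under TMM and median of ratios it was 3 with *eri-1(mg366)* and 2 in the HRDE-1 IP. Per all counted reads, chosen later, it was 1, 1 and 2 in embryos, with *eri-1(mg366)* and in the HRDE-1 IP. TMM moved antisense log2 ratios of all genes by -0.45, -0.09, -0.73, -0.17 and 0.03, and median of ratios by -0.45, -0.19, -0.78, -0.17 and 0.00. The HRDE-1 antisense median became 0.89 under either, and the embryo sense median -0.57 and -0.56. Of the 111 antisense log2 ratios of named genes, none past 2-fold changed sign, and 4, 4 and 8 crossed 2-fold under TMM, median of ratios and all counted reads. Of those within 2-fold, K07C10.2 (0.30 to -0.15) and B0334.12 (0.19 to -0.26) changed sign in total small RNA under TMM and median of ratios, and C41C4.11 (-0.02 to 1.09) in embryos per all counted reads, a setting under which Y67A10A.14 was at 0.999 in the WAGO-1 IP. K07C10.2 and B0334.12 were at -0.35 and -0.75 in embryos per all counted reads, and at -1.26 and -1.53 with *eri-1(mg366)* under TMM. Apart from the fewer genes or reads an alternative keeps, the cause was not tested. No paired analysis was possible because the labels carry no shared replicate numbers.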
